A study of Drosophila melanogaster with 12 samples.

Results

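The genes described here are those whose RNA changed in the same direction under social isolation in female and in male fly heads. They were chosen by a test of isolated against group-housed libraries over both sexes, with sex and batch as terms, followed by a sign rule. The sign rule kept a gene only where the mean level moved the same way in females and in males, each in both batches. Of 9810 genes tested, 66 passed an adjusted p of 0.05 (edgeR quasi-likelihood test, Benjamini-Hochberg adjustment), and 62 of these kept 1 sign throughout. Of the 62 shared genes, 58 were higher and 4 lower in isolated flies.

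The flies were adult Drosophila melanogaster of the wild-type strain ORE-R, and RNA came from pools of 200 whole heads, enriched for polyA transcripts. Females and males first lived together for 3 to 5 days and then spent 7 days either alone or in same-sex groups of 25. Each of the 4 groups (group-housed females, isolated females, group-housed males, isolated males) had 3 libraries, of which replicate 0 belonged to batch 1 and replicates 1 and 2 to batch 2. Nothing in the labels ties the pools to separate cultures; p-values therefore measure only how far these samples spread, which may be technical. All groups share the strain, the tissue and the earlier mixed-sex housing, and no group received a transgene or a drug. The isolated male replicate 1 library is marked as merged, and it was used as 1 replicate.

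Gene counts ran from 2577847 to 17084124 per library. The isolated females of batch 2 stood apart before any test. They were the shallowest libraries, at 2577847 and 3217049 counts, and lay at 56.4 and 44.5 on the first principal component (29.1% of the variance), against -32.7 to 23.2 for the other 10. Their summed CPM of ovary markers was 263 and 195, and that of group-housed female replicate 1 was 464, against 40.05 to 66.2 in the other 9 libraries. The part of the ovary markers in the results was not tested. Markers of head tissue were present in every library: the summed CPM (counts scaled to library size) ran from 5666 to 9212 for neurons, from 16310 to 21910 for photoreceptors, from 2373 to 3090 for glia and from 4303 to 7029 for muscle. None of the 48 tested markers of these 4 types passed the edgeR test of housing, nor DESeq2 or limma-voom. In edgeR 2 had an unadjusted p under 0.05, against 976 of the 9810 genes tested. In pooled heads, fewer cells of a type and less RNA per cell cannot be told apart.

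Several of the genes below belong to folate-linked one-carbon metabolism, in which carbon units from serine and glycine are carried on folate into purine rings and into the recycling of methionine. Others belong to detoxification, where cytochrome P450 enzymes and sugar transferases modify foreign and internal compounds. The fly head contains fat body, a tissue with the roles of liver and adipose tissue, which also secretes immune and feeding signals.

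The shared response was mostly a rise. Among the genes tested, 0.591% were called higher and 0.0815% lower. All 58 genes called higher kept their sign in the 4 combinations of sex and batch, so the share of genes that were shared and higher was also 0.591%. Among the 8 called lower only 4 kept it, or 0.0408% of the genes tested. Of these 8, all but Dsk passed the expression filter only through group-housed males, the group where they are high. The sign rule alone was met by 9.57% of all genes upward and 9.08% downward. The log2 changes of the 58 had a median of 0.73 and a range from 0.47 to 4.03, against a median of -0.01 for all genes. The value of 4.03 is that of Ugt37A1, which passed the expression filter only through isolated females, where it is high. Because the log2 changes chose the genes, they are given as a description.

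The rise was larger in females for most of the 58. The median log2 change was 1.02 in females and 0.51 in males, and of the 57 other than Ugt37A1, whose male fold rests on a group at 0 reads, 55 had the larger change in females. Tested within each sex in a fit of 4 group means and batch, 55 passed in females, where 3.48% of all genes were called higher, and 2 passed in males (CG10621 and Cyp6a8), where 0.0204% were. At an unadjusted p under 0.05, 46 of the 58 were higher in males, a count not set against the share of all genes. In females all 58 had every isolated library above every group-housed one, against 9.59% of all genes. In males 33 of the 58 did, against 3.17%, and the same 33 were free of overlap in both sexes, against 0.887%. The same 12 libraries chose these genes, so the counts within each sex describe the choice and lend it no support. The signs in batch 1 rest on 1 library per group. The smallest of a gene's 4 differences lay in males for 54 of the 58, and its median was 0.34 on the log2 scale. The smallest of all was 0.02, for CG10814 in males of batch 1.

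**Figure D1:**
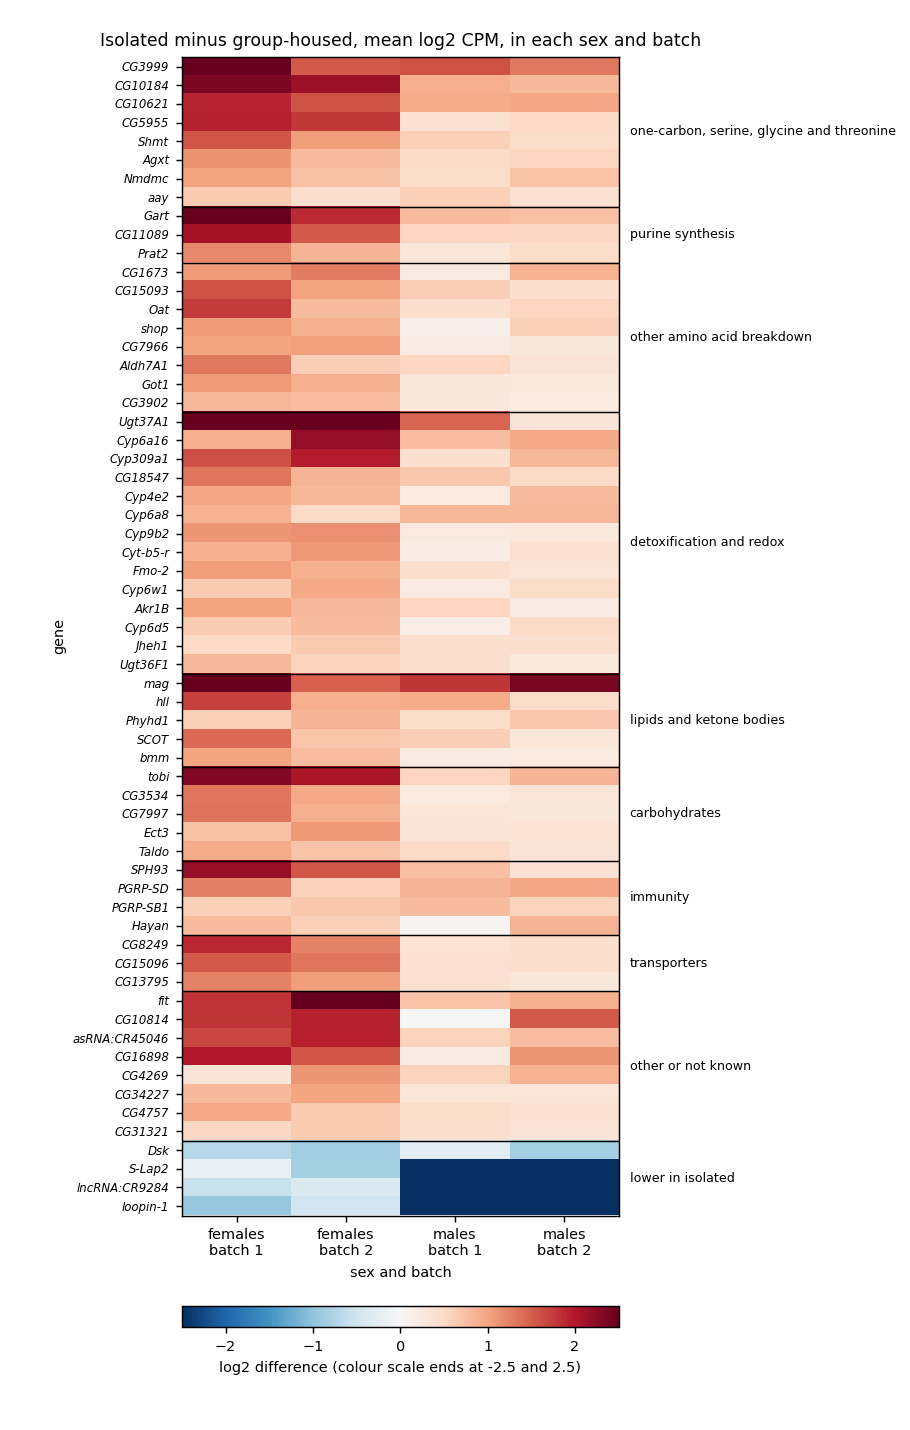
Heat map of the 62 shared genes (rows, grouped by function) showing the difference in mean log2 CPM between isolated and group-housed libraries in females and males of each batch (columns); red is higher and blue lower in isolated flies, and the scale ends at -2.5 and 2.5. The columns for females are darker than those for males in most of the 58 higher genes, whose medians were 1.16 and 0.95 in females and 0.43 and 0.47 in males of batches 1 and 2.

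How many genes pass depended on the libraries. With 1 library left out at a time, the number of shared higher genes was 17, 19 and 19 without isolated female replicate 2, 1 and 0, and 21, 24 and 22 without group-housed female replicate 0, 1 and 2. Among males, leaving out group-housed replicate 1 or 2 gave 115 or 31, and leaving out isolated replicate 1 or 2 gave 32 or 108. With replicate 0 standing for isolated females, in place of the libraries that stood apart, 6 genes were shared and higher: CG10621, PGRP-SD, Cyp6a8, Nmdmc, CG1673 and CG3999. All 58 kept a positive log2 change in every one of these fits, which the sign rule on the same libraries made likely beforehand. Over these 12 fits (leave-one-out fits below), 13 of the 58 passed in all, 16 in 6 to 11 and 29 in fewer than 6.

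Of the 58, 8 encode enzymes of one-carbon, glycine, serine and threonine metabolism, with a median log2 change of 1.01. CG3999, the predicted glycine decarboxylase of the glycine cleavage system, had 46.6, 61.0 and 52.1 CPM in group-housed females and 297, 159 and 167 CPM in isolated females. Males had 41.0, 67.9 and 28.8 CPM in groups and 124, 124 and 98.4 CPM alone. Every isolated library was above every group-housed one in each sex, and the isolated female of batch 1 was the highest. The log2 change was 1.65 (SE 0.23, edgeR adjusted p = 0.00713), and the smallest difference in any sex and batch, 1.32, was the largest such value among the 56 shared higher genes whose mean log2 CPM reached 1.

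CG10621, a predicted homocysteine S-methyltransferase, which makes methionine from homocysteine, had the smallest p of all genes tested. It stood at 82.6, 114 and 107 CPM in group-housed females and 309, 320 and 343 CPM in isolated females. In males it was 94.9, 92.7 and 95.4 CPM in groups and 181, 193 and 175 CPM alone. The group-housed males lay within 3 CPM of each other and well below all isolated males. The log2 change was 1.32 (SE 0.13, edgeR adjusted p = 0.000118), with 1.69 in females and 0.95 in males. It also passed in batch 2 alone (adjusted p = 0.00265) and with replicate 0 standing for isolated females (adjusted p = 0.00441).

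Nmdmc encodes a mitochondrial folate enzyme, an NAD-dependent methylenetetrahydrofolate dehydrogenase. It had 63.7, 106 and 84.4 CPM in grouped females and 128, 145 and 169 CPM in lone females, and 69.2, 81.4 and 84.1 CPM in grouped males and 95.2, 124 and 147 CPM in lone males. No overlap remained in either sex, and the log2 change was 0.72 (SE 0.10, edgeR adjusted p = 0.00355). CG10184, a predicted threonine aldolase, which splits threonine into glycine and acetaldehyde, had 14.8, 17 and 22 CPM in group-housed and 76.8, 92.5 and 82.0 CPM in isolated females. Males had 38.6, 68.6 and 55.0 CPM in groups and 72.9, 119 and 97.0 CPM alone, again without overlap. The log2 change was 1.50 (SE 0.23, edgeR adjusted p = 0.0101). CG5955, a predicted threonine dehydrogenase on the other route from threonine to glycine, had a log2 change of 1.13 (SE 0.22, edgeR adjusted p = 0.0412).

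Shmt, the serine hydroxymethyltransferase that links serine, glycine and folate, had a log2 change of 0.89 (SE 0.18), Agxt, an alanine-glyoxylate aminotransferase, of 0.77 (SE 0.16), and aay, the phosphoserine phosphatase that completes serine synthesis, of 0.47 (SE 0.10). In males the isolated replicate 2 library lay inside the group-housed range for Shmt, at 133 CPM against 115 to 137, and for Agxt, at 23.8 CPM against 22.9 to 32.9. All 8 genes of the group had an unadjusted p under 0.05 in males, but only CG10621 passed there after adjustment. In 5 of the 8 the male groups did not overlap. These counts come from the libraries that chose the genes, and the unadjusted one was not set against the share of all genes. CG3999, CG10621 and Nmdmc passed in all 12 leave-one-out fits. CG10184 lost its call in 1 (adjusted p = 0.0648, lacking group-housed female replicate 2), CG5955 in 8 (0.116 without group-housed female replicate 2), and Shmt, Agxt and aay in 9 each (0.113 without group-housed female replicate 0, and 0.119 and 0.135 without isolated female replicate 0). In the fixed list of methionine cycle and methyl group genes, 2 of 15 tested were shared and higher, 6 had the same sign upward and none downward in the 4 combinations, and the median was 0.17.

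**Figure D2:**
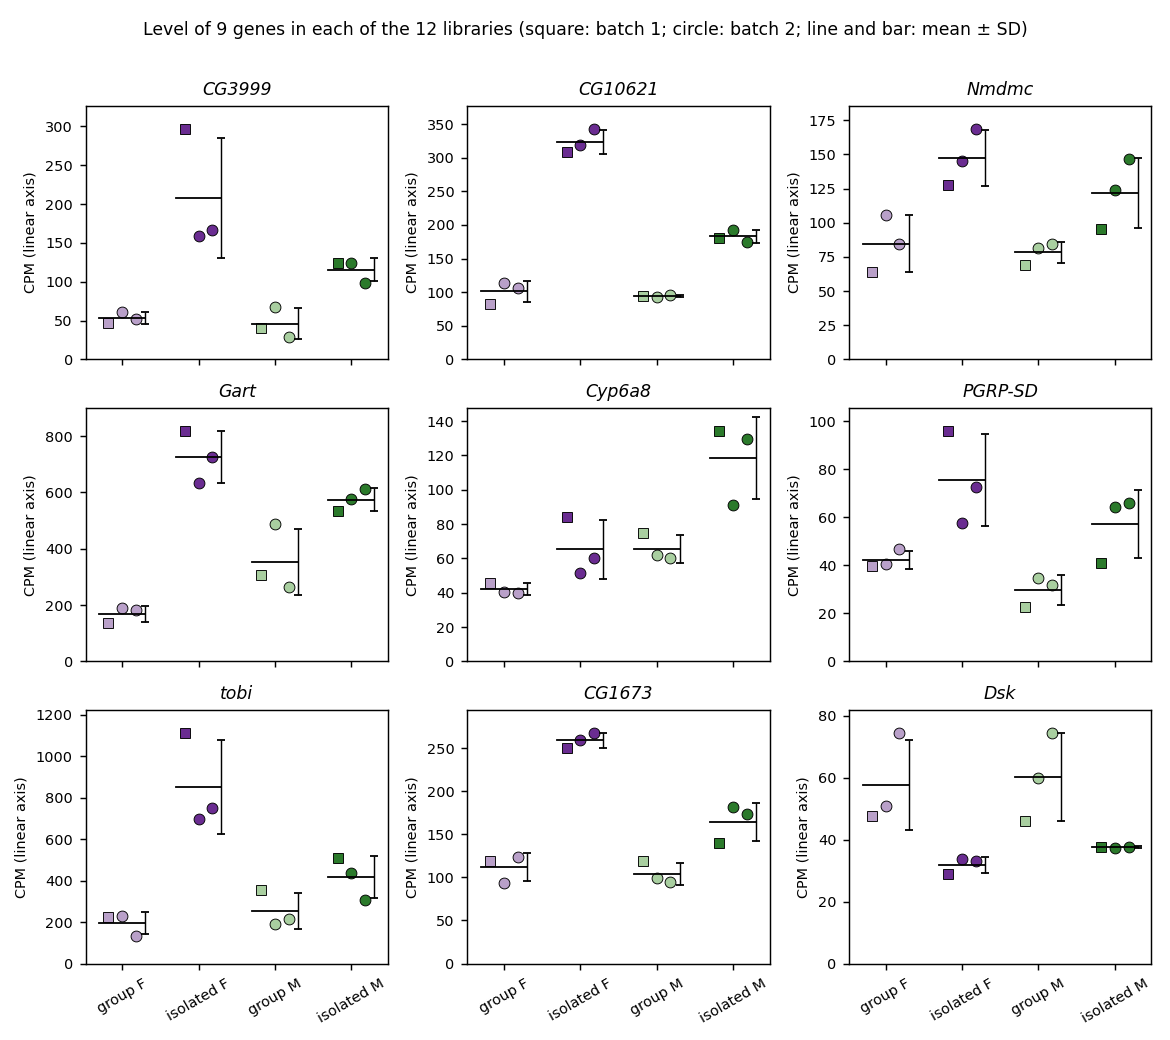
CPM on a linear axis (y) of 9 shared genes in the 12 libraries, by group (x; F, females; M, males), with squares for batch 1, circles for batch 2, and a line and bar for the mean ± SD of 3 libraries. Isolated libraries lie above group-housed ones in both sexes for CG3999, CG10621, Nmdmc, Gart, Cyp6a8, PGRP-SD and CG1673, and below them for Dsk; for tobi the male groups overlap.

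Of the 58, 3 encode steps of purine synthesis. Gart, which encodes an enzyme with several activities in the building of the purine ring, had 136, 188 and 183 CPM in grouped females and 819, 635 and 726 CPM in lone females. Males had 307, 488 and 265 CPM in groups and 534, 578 and 613 CPM alone. The isolated libraries were the higher ones in each sex, and group-housed males were above group-housed females. Over both sexes Gart changed by log2 1.41 (SE 0.25, edgeR adjusted p = 0.0272). CG11089, the predicted enzyme of the last steps to IMP, had a log2 change of 1.12 (SE 0.20, edgeR adjusted p = 0.0233), and Prat2, an amidophosphoribosyltransferase of the first step, of 0.68 (SE 0.14, edgeR adjusted p = 0.0353). The male groups of CG11089 and Prat2 overlapped: group-housed replicate 1, at 529 and 221 CPM, exceeded isolated replicate 0, at 463 and 198 CPM. Of the 12 leave-one-out fits, Gart and CG11089 lost their calls in 5 (adjusted p = 0.11 and 0.0791 without group-housed female replicate 2) and Prat2 in 7 (0.107 without isolated female replicate 2). In the purine list 2 of 20 tested members were shared and higher, 9 had the same sign upward and none downward, and the median was 0.23; CG11089 was not on that list. Of the members that did not pass, Prat, which encodes another amidophosphoribosyltransferase, was at -0.44 (adjusted p = 0.63) and AdSL, adenylosuccinate lyase, at 0.81 (adjusted p = 0.11).

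A further 8 genes act in the breakdown of other amino acids, with a median log2 change of 0.66. CG1673, a predicted branched-chain aminotransferase, had 120, 93.1 and 123 CPM in grouped females and 250, 260 and 267 CPM in lone females. Males had 119, 98.7 and 94.4 CPM in groups and 139, 181 and 173 CPM alone. Isolated and group-housed libraries did not overlap, and the isolated male of batch 1 was the closest to the group-housed ones. CG1673 changed by log2 0.93 (SE 0.13, edgeR adjusted p = 0.00355), and it passed in all 12 leave-one-out fits. Oat, ornithine aminotransferase, had 18.7, 23.5 and 19.9 CPM in grouped females and 63.4, 37.0 and 38.2 CPM in isolated females, and 27.2, 24.4 and 24.9 CPM in group-housed and 36.3, 44.2 and 29.3 CPM in lone males. Again no library crossed over, and the isolated female of batch 1 stood highest. Oat changed by log2 0.84 (SE 0.16, edgeR adjusted p = 0.0269).

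The other members were CG15093, a predicted hydroxyisobutyrate dehydrogenase of valine breakdown, at 0.86, shop, a sulfite oxidase, at 0.69, and CG7966, a predicted selenium-binding protein, at 0.64. Aldh7A1, a lysine breakdown enzyme in mammals, stood at 0.63, the aspartate aminotransferase Got1 at 0.62, and CG3902, a predicted acyl-CoA dehydrogenase of branched-chain breakdown, at 0.53. Oat lost its call in 6 of the 12 leave-one-out fits (adjusted p = 0.0819 when lacking group-housed female replicate 0) and Got1 in 8 (0.134 without isolated female replicate 0). In the fixed amino acid breakdown list, 2 of 26 tested members were shared and higher, 13 had the same sign upward and none downward, and the median was 0.30.

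The largest group of shared genes, 14 of the 58, encodes enzymes of detoxification and redox reactions, among them 7 cytochrome P450 genes. Cyp6a8 had 46.0, 40.4 and 39.6 CPM in grouped females and 84.3, 51.5 and 60.1 CPM in isolated females. Males had 75.0, 61.7 and 60.2 CPM in groups and 134, 90.9 and 130 CPM alone. The groups did not overlap in either sex, and isolated females lay close to group-housed males. Cyp6a8 changed by log2 0.74 (SE 0.11, edgeR adjusted p = 0.00558), with 0.63 in females and 0.85 in males. Apart from Ugt37A1, the other gene with the larger value in males was PGRP-SD, described below.

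Cyp4e2 had 96.6, 72.1 and 68.3 CPM in grouped females and 190, 116 and 133 CPM in lone females, and 126, 75.6 and 87.0 CPM in group-housed and 149, 168 and 117 CPM in lone males. The male groups overlapped, since group-housed replicate 0 lay above isolated replicate 2. Over both sexes the log2 change was 0.75 (SE 0.12, edgeR adjusted p = 0.00658). Cyp309a1 had a log2 change of 1.24 (SE 0.22, edgeR adjusted p = 0.0269) and Cyp6w1 of 0.62 (SE 0.11, edgeR adjusted p = 0.0197), both without overlap in either sex. Cyp9b2 and Cyp6d5 stood at 0.69 and 0.56, and Cyp6a16, which had few reads, at 1.38. Cyp6a8 and Cyp4e2 passed in all 12 leave-one-out fits. Cyp6w1 lost its call in 2 (adjusted p = 0.0638 without isolated female replicate 0), Cyp309a1 in 6 (0.0952 without group-housed female replicate 1) and Cyp6a16 in 9 (0.128 without isolated female replicate 0). Of 71 P450 genes tested, 6 were shared and higher and none lower, 25 had the same sign upward and 5 downward, and the median was 0.19; Cyp6a16 was not on that list.

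The UDP-glucuronosyl or glycosyl transferase gene Ugt37A1 was almost silent in males. It had 7, 4 and 2 reads in group-housed and 113, 11 and 14 reads in isolated females, or 0.359, 0.564 and 0.415 CPM against 12.2, 4.97 and 4.86 CPM. In males it had 0 reads in all 3 group-housed libraries, which allows up to 3 reads over the group or 0.103 CPM, and 5, 2 and 0 reads in isolated libraries. The female groups were far apart, while the male groups overlapped at 0. Against that floor the level over isolated males was 2.0-fold higher, from 7 reads in all, which is close to the limit of detection. The floor allows for sampling error in group-housed males only, so this fold is not a lower bound. The fitted log2 change of Ugt37A1 was 4.03 (SE 0.60, edgeR adjusted p = 0.00658), and the call was lost without isolated female replicate 0 (adjusted p = 0.0638). The gene passed the expression filter only through isolated females, the group where it is high. A rise in females was thus favored beforehand, and the call lends no support. With Ugt37A1 at its floor the median male log2 change of the 58 was 0.51 as before.

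Ugt36F1 had a log2 change of 0.48 (SE 0.10, edgeR adjusted p = 0.0392) and did not overlap in either sex. CG18547, a predicted oxidoreductase, had 39.8, 55.1 and 45.2 CPM in grouped females and 102, 98.9 and 83.0 CPM in isolated females, and 58.1, 87.6 and 65.9 CPM in group-housed and 92.7, 113 and 98.6 CPM in lone males. The groups did not overlap, and its log2 change was 0.78 (SE 0.13, edgeR adjusted p = 0.00755). Jheh1, a juvenile hormone epoxide hydrolase, stood at 0.49 (SE 0.10, edgeR adjusted p = 0.0297), and the flavin-containing monooxygenase Fmo-2 at 0.64 (SE 0.14, edgeR adjusted p = 0.0479). The aldo-keto reductase Akr1B and the cytochrome b5-related Cyt-b5-r stood at 0.60 and 0.68. Of the 12 leave-one-out fits, Ugt36F1 lost its call in 9 (adjusted p = 0.128 without isolated female replicate 0), Jheh1 in 9 (0.0943 without isolated female replicate 2) and Fmo-2 in 10 (0.139 without group-housed female replicate 0). In the list of glutathione and UDP transferases, 2 of 52 tested members were shared and higher, 22 had the same sign upward and none downward, and the median was 0.23.

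Lipid and sugar genes made up 10 of the 58. The lipase gene mag (magro) was at few reads. It had 0, 3 and 1 reads in group-housed and 37, 2 and 5 reads in isolated females, or 0, 0.423 and 0.207 against 4.01, 0.903 and 1.74 CPM. In males it had 1.95, 1.67 and 1.78 CPM in groups and 7.29, 10.9 and 8.91 CPM alone, well apart. The log2 change was 2.79 (SE 0.50, edgeR adjusted p = 0.0146), and it passed in all 12 leave-one-out fits.

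The triglyceride lipase gene bmm (brummer), which releases stored fat, had 76.9, 80.7 and 81.7 CPM in grouped females and 153, 153 and 125 CPM in lone females. Males had 91.1, 106 and 82.8 CPM in groups and 107, 116 and 108 CPM alone, so that the male groups were separated by less than 1 CPM. Its log2 change was 0.54 (SE 0.12, edgeR adjusted p = 0.0445), with 0.85 in females and 0.24 (SE 0.13) in males. The call was lost in 9 of the 12 leave-one-out fits (adjusted p = 0.134 when lacking isolated female replicate 0). Phyhd1, named for a phytanoyl-CoA dioxygenase domain, stood at 0.70 (SE 0.12) and passed in all 12 of those fits. SCOT, which activates ketone bodies for use as fuel, stood at 0.69, and hll, a long-chain fatty acid CoA ligase, at 0.90. In the list of fatty acid and triglyceride genes 2 of 41 tested members were shared and higher, 9 had the same sign upward and 2 downward, and the median was 0.15.

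tobi (target of brain insulin), an alpha-glucosidase gene under insulin control, had 225, 229 and 135 CPM in grouped females and 1112, 698 and 749 CPM in lone females. Males had 354, 193 and 217 CPM in groups and 510, 436 and 308 CPM alone. The female groups were far apart, whereas among males group-housed replicate 0 lay above isolated replicate 2. Its log2 change was 1.42 (SE 0.24, edgeR adjusted p = 0.0162), and the call was lost in 2 of the 12 leave-one-out fits (adjusted p = 0.0692 when lacking group-housed female replicate 1). The predicted xylulokinase CG3534 stood at 0.69, the predicted alpha-galactosidase CG7997 at 0.67, the beta-galactosidase Ect3 at 0.63 and the transaldolase Taldo at 0.59. Of 41 genes of carbohydrate breakdown tested, 1 (tobi) was shared and higher, 17 had the same sign upward and 1 downward, and the median was 0.13. In the list of insulin and FOXO genes the 2 shared members of 21 tested were tobi and bmm.

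Both peptidoglycan recognition genes of the set were higher in isolated flies in each sex. PGRP-SD, a peptidoglycan recognition protein, had 39.8, 40.4 and 46.7 CPM in grouped females and 96.0, 57.8 and 72.6 CPM in isolated females. In males it had 22.5, 34.9 and 31.7 CPM in groups and 41.0, 64.4 and 66.1 CPM alone. The groups did not overlap in either sex, and its log2 change was 0.91 (SE 0.15, edgeR adjusted p = 0.00755), with 0.88 in females and 0.95 in males. PGRP-SB1, a peptidoglycan-degrading family member, had 126, 169 and 158 CPM in grouped females and 191, 275 and 246 CPM in lone females, and 52.0, 88.4 and 67.3 CPM in group-housed and 90.7, 99.5 and 130 CPM in lone males. No library crossed over, although the closest male libraries, isolated replicate 0 and group-housed replicate 1, were 90.7 and 88.4 CPM. Its log2 change was 0.64 (SE 0.10, edgeR adjusted p = 0.00658), with 0.65 in females and 0.64 in males.

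The female minus male difference in log2 response was -0.07 (SE 0.30, edgeR adjusted p = 0.991) for PGRP-SD and 0.01 (SE 0.20, edgeR adjusted p = 0.999) for PGRP-SB1. These errors leave room for a difference in either direction. Both genes passed in all 12 leave-one-out fits. The serine protease homolog gene SPH93 had a log2 change of 1.15 (SE 0.22), larger in females (1.76) than in males (0.57). Hayan, a serine protease of the melanization cascade, stood at 0.63 (SE 0.13), but in males of batch 1 at only 0.05. SPH93 and Hayan each lost their call in 7 of the 12 leave-one-out fits (highest adjusted p = 0.091 when lacking group-housed female replicate 2, and 0.126 when lacking isolated female replicate 0). Of 46 immune recognition and signalling genes tested, 2 were shared and higher, 18 had the same sign upward and 1 downward, and the median was 0.18. Of 33 antimicrobial effector genes none passed in edgeR, while DESeq2 called 4 higher and 2 lower and limma-voom called 1 higher. At an unadjusted p under 0.05 in edgeR, 8 were higher and 5 lower, where 976 of all 9810 genes passed in either direction. The DESeq2 and limma-voom counts over all genes are given in the closing section.

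The other shared higher genes are 3 predicted transporters and 8 genes of other or unknown function. CG15096, related to phosphate and organic anion transporters, had 171, 205 and 203 CPM in grouped females and 492, 571 and 471 CPM in lone females. Males had 266, 249 and 246 CPM in groups and 349, 366 and 303 CPM alone. The groups did not overlap, and its log2 change was 0.91 (SE 0.16, edgeR adjusted p = 0.0144). CG8249, a predicted sugar transporter, stood at 0.92 (SE 0.17) and lost its call in 5 of the 12 leave-one-out fits (adjusted p = 0.0792 when lacking isolated female replicate 2). CG13795, a predicted transporter of the neurotransmitter symporter family, stood at 0.69 (SE 0.15).

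fit, a female-enriched gene whose product is a satiety signal from the fat body, had 114, 66.2 and 51.7 CPM in grouped females and 399, 389 and 303 CPM in lone females. In males it had 23.6, 9.67 and 15.8 CPM in groups and 38.8, 37.6 and 14.3 CPM alone. The male groups overlapped, with isolated replicate 2 inside the group-housed range. Its log2 change was 1.67 (SE 0.32, edgeR adjusted p = 0.0466), and the call was lost in 9 of the 12 leave-one-out fits (adjusted p = 0.16 when lacking group-housed female replicate 1). asRNA:CR45046, an antisense RNA that shares 178 bases with fit on the same strand, had a log2 change of 1.54 (SE 0.25, edgeR adjusted p = 0.00973). Reads from the shared bases cannot be assigned to either with certainty.

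Among the shared genes that fell, Dsk was the only one whose mean log2 CPM reached 1. It encodes the drosulfakinins, neuropeptides related to mammalian cholecystokinin that are known for roles in satiety and in social behaviors such as aggression. Its level was 47.7, 51.0 and 74.5 CPM in group-housed and 28.9, 33.9 and 33.0 CPM in isolated females. In males it was 46.0, 60.0 and 74.4 CPM in groups and 37.7, 37.4 and 37.8 CPM alone. All 6 isolated libraries lay below all 6 group-housed libraries, and the isolated males were nearly identical. The log2 change was -0.74 (SE 0.12, edgeR adjusted p = 0.00755), with -0.84 in females and -0.65 in males.

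The Dsk call held in all 12 leave-one-out fits (highest adjusted p = 0.0345, without isolated female replicate 2). In batch 2 alone the log2 change was -0.86 (adjusted p = 0.0515), and with replicate 0 standing for isolated females it was -0.68 (adjusted p = 0.128). Dsk was 1 of 33 neuropeptide precursor genes tested, of which 4 had the same sign downward and 1 upward in the 4 combinations, with a median log2 change of -0.03. By edgeR it was the only one that passed.

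The other shared lower genes were S-Lap2, an aminopeptidase of sperm, loopin-1, a protein of sperm mitochondria, and the noncoding lncRNA:CR9284. In females these genes had 0 to 8 reads per library, so that the female sign rests on a handful of reads and no female fold is given. Among group-housed males, replicate 0 had 593 reads of S-Lap2, 809 of loopin-1 and 305 of lncRNA:CR9284, while the other group-housed males had 10 to 38 and the isolated males 0 to 10. These genes passed the expression filter only through group-housed males, the group where they are high. A fall in males was thus favored beforehand, and their calls lend no support. Without group-housed male replicate 0 the calls were lost, at adjusted p = 0.072 for S-Lap2, 0.0714 for loopin-1 and 0.142 for lncRNA:CR9284, which lost its call in 5 of the 12 leave-one-out fits. The summed CPM of the testis and accessory gland list was 1091 in that library, 714 and 630.2 in the other group-housed males, and 605.4 to 657.4 in isolated males. In females that sum was 514.6 to 657.5 in groups and 661.2 to 842.2 alone. Isolated females thus lay above isolated males, and only 9 of the 39 matched genes of the list passed the expression filter. The sum therefore cannot be read as an amount of testis or accessory gland tissue. The summed CPM of gut and salivary gland markers was 135 in group-housed male replicate 0 and 5.57 to 23.3 in the other 11 libraries. The part of these tissues in the result was not tested.

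Markers of fat body moved with isolation in females. The summed CPM of the fat body list was 26790 to 33900 in group-housed and 54720 to 69140 in isolated females, but 13690 to 17440 in group-housed and 14110 to 17680 in isolated males. In males the ranges of that sum overlapped. Its part in the result was not tested. Of 17 fat body genes tested, only fit was shared, 5 had the same sign upward and none downward, and the median log2 change was 1.17 in females and -0.06 in males. The storage protein gene Lsp2 had the same sign throughout but did not pass (edgeR adjusted p = 0.0973). For takeout (symbol to), a feeding-related gene named in the title of the study, the log2 change was 1.23 (edgeR adjusted p = 0.621). That value averages 2.80 in females and -0.28 in males, so the gene failed the sign rule.

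**Figure D3:**
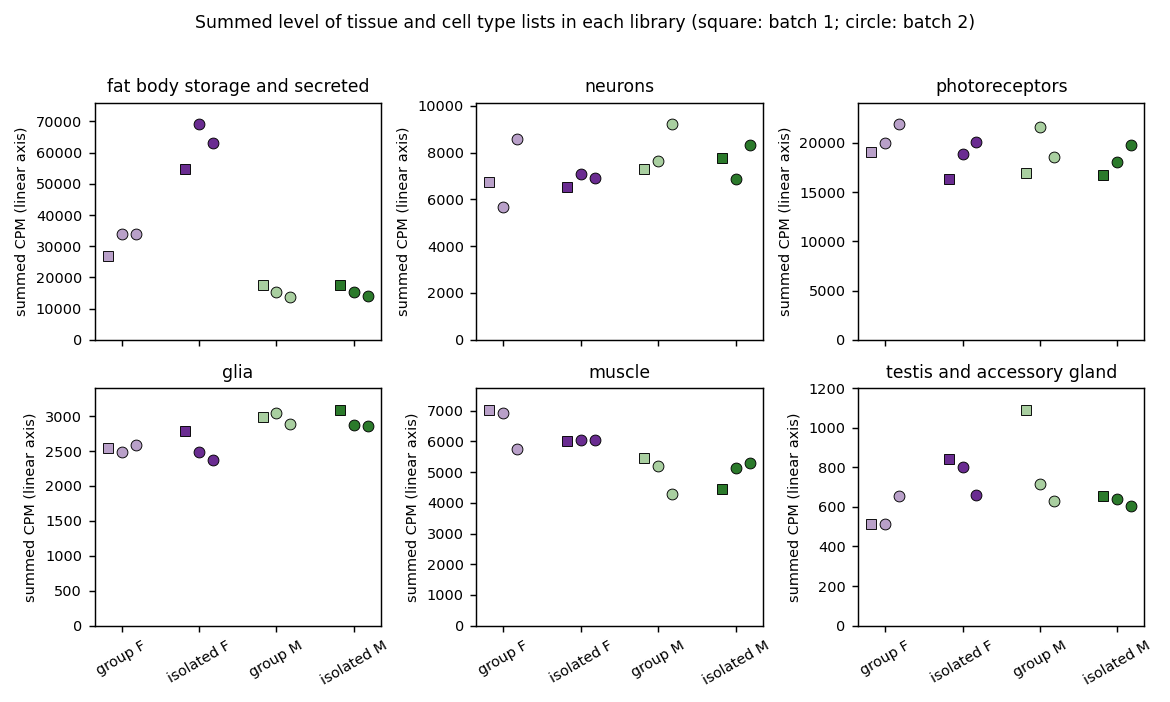
Summed CPM on a linear axis (y) of 6 tissue and cell type gene lists in the 12 libraries, by group (x; F, females; M, males), with squares for batch 1 and circles for batch 2. Fat body sums of isolated females (54720 to 69140) lie above all others, while male sums overlap between housing conditions, and the testis sum is highest in group-housed male replicate 0 (1091).

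The test of whether the sexes differed in their response was made directly, as an interaction of sex and housing. Over all genes 0.449% had a significantly greater rise in females, and among the 58 there were 8. These are CG10184, CG5955, CG8249, CG11089, CG15096, Gart, tobi and Cyp9b2. The shared genes were chosen to have 1 sign in both sexes, which limits this comparison, so the count is a description. For tobi the log2 change was 2.09 (SE 0.20) in females and 0.75 (SE 0.19) in males. For Gart it was 2.12 (SE 0.21) in females and 0.71 (SE 0.20) in males. With libraries scaled by their totals alone, none of the shared genes passed the interaction test in edgeR (lowest adjusted p = 0.0902), 17 had an unadjusted p under 0.05, and DESeq2, with its own scaling, gave 15.

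**Figure D4:**
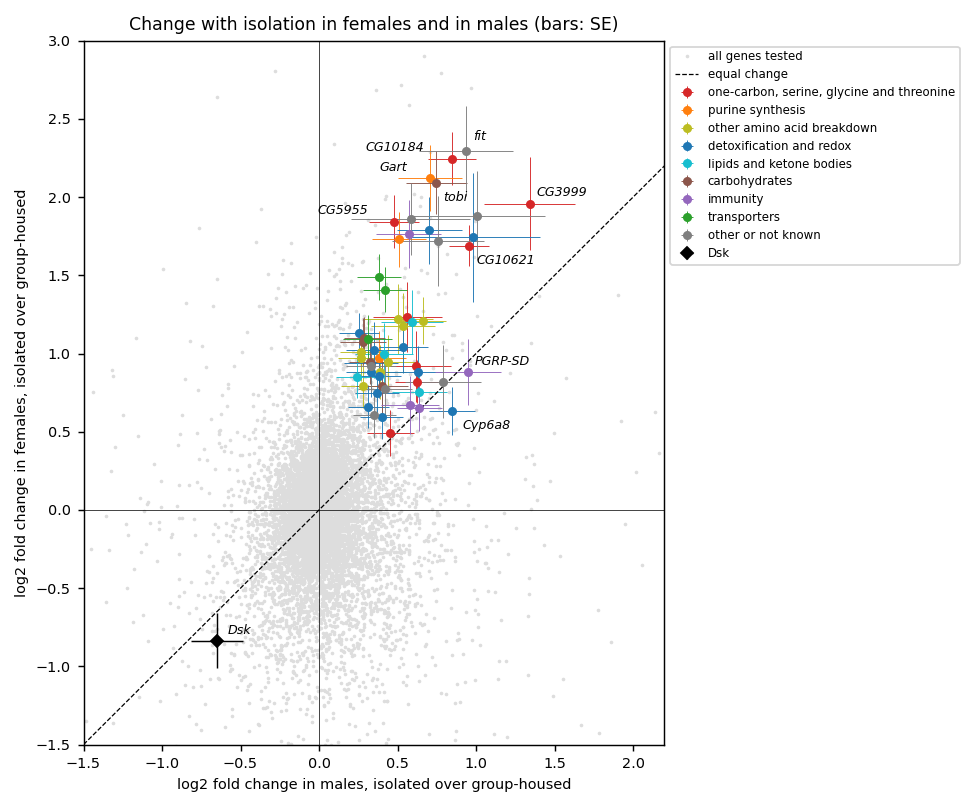
Log2 fold change of isolated over group-housed flies in males (x) and in females (y), with all genes tested in grey, shared genes in color by function and SE bars; Ugt37A1, mag and the 3 lower genes near 0 reads are not drawn in color. Most shared higher genes lie above the dashed line of equal change, with medians of 1.02 in females and 0.51 in males, whereas PGRP-SD lies close to it and Cyp6a8 below it.

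The level of a gene in females against males was not used to choose the set, and it differed among the members. Of the 58 higher genes, 17 were higher in females, against 4.73% of all genes, and 5 were lower in females, against 2.23%; the other 36 passed in neither direction. The sex difference was log2 5.28 (SE 0.27, edgeR adjusted p = 7.26e-09) for asRNA:CR45046 and 5.13 (SE 0.29, edgeR adjusted p = 1.69e-07) for CG10814, both low but detected in males. It was 2.93 (SE 0.32) for fit and 1.14 (SE 0.10, edgeR adjusted p = 1.30e-06) for PGRP-SB1. The genes higher in males were Cyp6a8 at -0.75 (SE 0.11, edgeR adjusted p = 0.000283), CG34227 at -0.77, mag at -2.38, CG7997 at -0.61 and CG10184 at -0.84 (SE 0.23, edgeR adjusted p = 0.0418).

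In group-housed libraries alone, all 17 were again higher in females and 8 passed the test, where 1.49% of all genes were called higher. All 5 male-biased genes passed there too, where 1.28% were called lower in females. Dsk showed no sex difference that passed (-0.15, SE 0.12, edgeR adjusted p = 0.552), and the 3 other lower genes were higher in males. Isolated females reached the level of group-housed males for CG10184: the means were 17.9 CPM in grouped females and 83.8 CPM in isolated females, against 54.0 CPM in group-housed and 96.3 CPM in lone males.

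**Figure D5:**
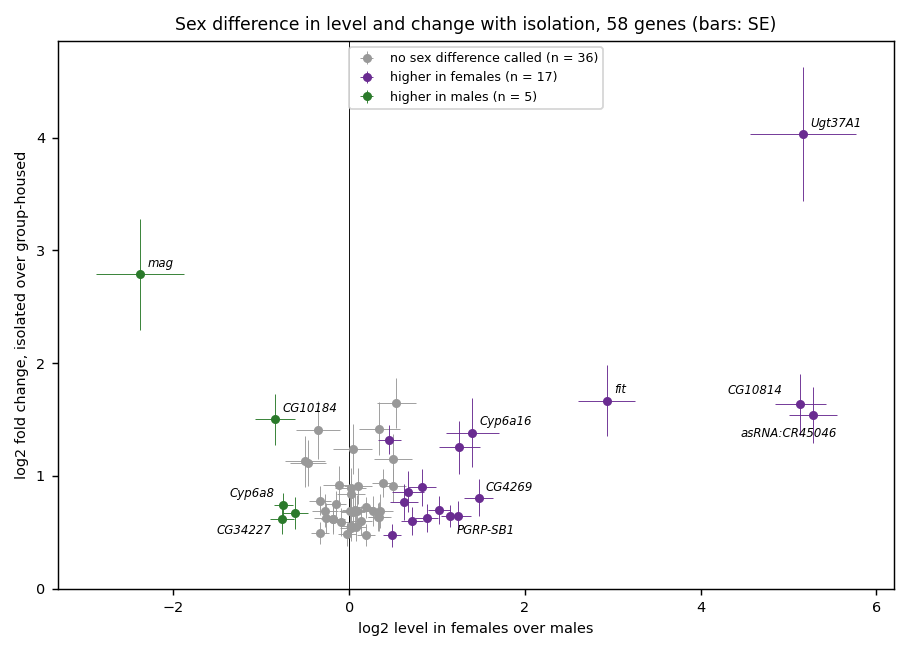
Log2 level in females over males (x) and log2 change of isolated over group-housed flies (y) for the 58 shared higher genes, with SE bars; purple genes passed the sex test as higher in females (17), green ones as higher in males (5) and grey ones passed in neither direction (36). asRNA:CR45046, CG10814 and Ugt37A1 lie farthest to the right, and mag farthest to the left.

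The shared higher genes had a median mean log2 CPM of 6.49, against 5.10 for all genes, and 56 of 58 had a mean of at least 1. In the BDGP6.54 annotation (9801 of 9810 tested genes matched by identifier) 57 of the 58 are protein-coding. Chromosome X held 5 of the 58 (8.62%), against 16.7% of all genes tested, and arm 2R held 16 (27.6%), against 20.6%. CG10621 lies on 2L at 18952206 to 18954431, CG3999 on 3R at 10251518 to 10255268, and Dsk on 3R at 4189692 to 4190260; their exons overlap no other gene. mag and CG5955 are neighbors on 3L, 4669 bases apart. The exons of 19 of the 58 overlap a gene on the other strand, among the genes named above Gart, CG11089, Nmdmc, Shmt, Jheh1, PGRP-SD, Hayan, SCOT, hll, CG15093, CG15096, CG13795, CG3902, Aldh7A1, CG3534, fit, tobi and asRNA:CR45046. S-Lap2 does as well. Because the strand setting of the counting was not given in the sources used here, these genes are uncertain.

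The genes whose levels most resembled CG3999 over the 12 libraries, with sex and batch means removed, were CG18547 (Pearson r = 0.973), Aldh7A1 (0.968) and Mct1 (0.964). The first and second are shared genes. For Dsk they were Pa1 (0.955), asRNA:CR43152 and CG31102 (0.891 each), none of which passed the test. Housing was not removed, so genes that changed with housing were likely to rank high beforehand. These values share libraries and depth and are descriptions without a test.

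The adjusted p threshold separated genes with similar values. Just inside were fit and Cyp6a16 at 0.0466 and Fmo-2 at 0.0479. Just outside, with the same sign in the 4 combinations, were the amylase gene Amy-d at 0.0508 and the P450 gene Cyp6d2 at 0.051, both higher in isolated flies. CG7227, also at 0.051, was lower in isolated flies. The genes that passed the test but failed the sign rule were CG34324, CG3213, CG33340 and CG14125, all lower in isolated males and at 0 to 0.451 CPM in females. They too passed the expression filter only through group-housed males, which favored a fall in males beforehand.

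Many functional lists held no shared gene. Over all genes tested 0.591% were shared and higher and 0.0408% shared and lower, so an empty list is no result about its function. Of 34 lists of functions and cell types, 11 held at least 1 shared higher gene, 21 held none, and the other two held only shared lower genes. In the list of nucleolus and ribosome biogenesis genes, 12 of 43 tested had the same sign downward, against 9.08% of all genes, and none upward, with a median of -0.14, and 6 were lower at an unadjusted p under 0.05 while neither edgeR, DESeq2 nor limma-voom called any. Of 19 takeout family genes, 6 had the same sign upward, against 9.57% of all genes, and none downward, and the median was 0.14, with 0.00032 in females and 0.12 in males; edgeR and limma-voom called none, DESeq2 called 2, and 5 were higher at an unadjusted p under 0.05. Over all 9810 genes tested, 976 had an unadjusted p under 0.05 in edgeR, higher and lower together. Of 31 ecdysone and juvenile hormone genes tested 1, Jheh1, was shared.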

How the data were processed

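RNA was sequenced from 12 libraries of pooled heads. The authors deposited whole-number read counts per feature, not normalized, and the tools listed in the submitters' processing notes, with no roles given, are edgeR 4.4.1, R 4.4.0, HTSeq 2.0.5, Picard 2.27.5 and STAR 2.7.10b. The genome build, annotation release and strand setting were not given in the sources used here. Of the rows, 17856 carry a gene identifier; rows that name no gene (reads with no feature, ambiguous or multiply aligned) held 10.2% to 13.2% of each column and were left out, as were other features and 1 more number per gene that belongs to no sample.

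Counts were analysed with edgeR 4.0.16 and limma 3.58.1 in R 4.3.3. filterByExpr, given the 4 groups, a minimum count of 10 and a minimum total of 15, left 9810 genes, which were scaled by TMM. The additive quasi-likelihood model with sex, batch and housing was fitted with robust estimation to all 12 libraries (8 residual degrees of freedom), and p-values were adjusted by the Benjamini-Hochberg method at a threshold of 0.05. The sign rule used mean log2 CPM (prior count 2) in females and males of each batch, with signs closer to 0 than 1e-08 taken as 0. Responses within each sex and the sex difference in group-housed libraries came from 4 group means with batch (7 residual degrees of freedom), and the difference in response from an interaction term. Standard errors were taken from log2 changes and their F statistics (size over root F). CPM of single genes is relative to TMM-scaled library sizes; sums over lists are relative to gene count totals. The code was tested on simulated data. Every replicate pair differed by more than sampling noise, with chi-square over its degrees of freedom at 4.55 to 69.7, so each library was counted once.

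The members, gene lists (1293 entries, 41 not matched) and tests were chosen with earlier results of these data known. Genes were named by a rule: among shared genes whose mean log2 CPM reached 1, the largest of the smallest differences over sex and batch and the smallest p; shared members of each list; the smallest p of the interaction; genes next to the threshold; genes failing the sign rule; and takeout. Members outside that rule, and the grouping of members by function, were added after their values were seen. Alternatives were other scalings and filters, DESeq2 1.42.0, limma-voom, other model terms, subsets of libraries and other forms of the sign rule.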

Additional observations from a re-analysis of the deposited data

Results flagged for a closer look

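Genes of the shared set were singled out where the female and male responses differed by the direct test of that difference (edgeR interaction term, adjusted over all genes); the rise was greater in females in each case. The female minus male log2 response was 1.40 (SE 0.22, adjusted p = 0.00554) for CG10184 and 1.37 (SE 0.23, adjusted p = 0.00656) for CG5955, the predicted threonine aldolase and dehydrogenase. It was 1.42 (SE 0.29, adjusted p = 0.037) for Gart and 1.22 (SE 0.24, adjusted p = 0.0307) for CG11089, both of purine synthesis. It was 1.11 (SE 0.20, adjusted p = 0.016) for the transporter gene CG8249 and 0.99 (SE 0.20, adjusted p = 0.037) for CG15096. It was 1.35 (SE 0.28, adjusted p = 0.037) for tobi and 0.88 (SE 0.18, adjusted p = 0.0426) for Cyp9b2.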

How the results depend on the processing

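Counts are given as genes higher and lower by the housing test, then shared higher and shared lower; the main values were 58 and 8, then 58 and 4. They were 129 and 101, then 123 and 30, with no filter on low counts; 215 and 28, then 204 and 27, with DESeq2; and 94 and 13, then 90 and 9, with limma-voom. With a CPM of at least 1 in 6 libraries 1 gene was lower and 1 shared lower. With 4 group means and batch, where the residual no longer holds the sex difference in response by construction, 220 were higher, 184 shared higher and 9 shared lower. Without a batch term 35 were higher and 35 shared higher, and with a minimum fold of 1.2 both were 14. In batch 2 alone they were 5 and 0, then 5 and 0; for lower genes there, 214 had an unadjusted p under 0.05, DESeq2 called 4 and limma-voom 0. With isolated females represented by replicate 0 alone 6 were higher and 6 shared higher. Without the merged isolated male library and the batch 1 group-housed male library, a choice made after seeing the data, they were 28 and 3, then 27 and 3. Leaving out 1 library at a time gave 17 to 119 higher, 2 to 27 lower, 17 to 115 shared higher and 1 to 14 shared lower. Requiring an unadjusted p under 0.05 in each sex left 1 shared lower gene. Of the main 58, 33 were still called with library totals alone, 57 with DESeq2 size factors in edgeR, 58 with DESeq2 and 57 with limma-voom. The difference between the sexes passed for 8 shared genes, 15 with DESeq2 and 0 with library totals alone, where 17 had an unadjusted p under 0.05. With a replicate block in place of batch, 50 were higher and 9 lower, and 50 and 5 shared. Same-numbered libraries of batch 2 correlated by -0.186 to 0.273. With so few libraries per group these correlations cannot show whether the numbers pair the samples, and the main fit did not pair them. Of 977 values of single genes under all alternatives 0 reversed, 707 kept their call, 269 lost it and 1 gained it. These were the named shared genes and takeout. The sign rule chose the shared genes from the same libraries, so the lack of reversals lends no support. Except where stated, the cause of a change was not tested. Depth limits genes near 0 reads in 1 sex.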
